A study of Mus musculus with 5 samples.

Results

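The 10 genes described here belong to the endoplasmic reticulum (ER) stress response and the integrated stress response: Atf4, Ddit3, Xbp1, Hspa5, Hsp90b1, Herpud1, Asns, Chac1, Trib3 and Sesn2. They were taken by symbol from the 32285 gene rows of a single-cell RNA matrix of mouse kidney. All 10 symbols were found, and Ddit3 also had a second identifier with 0 counts. Over 57661 kept cells Hspa5 had 232708 transcripts counted as unique molecular identifiers (UMIs), Hsp90b1 168536, Herpud1 166741, Atf4 49777, Xbp1 39647, Ddit3 23240, Sesn2 8313, Asns 1517, Chac1 435 and Trib3 248.

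The kidneys came from male C57BL/6J mice of 6 to 8 weeks, either sham-operated or after unilateral ischemia-reperfusion (UIR), in which the left renal pedicle was clamped and released. UIR kidneys were taken on day 1, day 3, day 14 and day 28, and all 5 conditions are listed with 1 sample each. The sources mention 3 mice for each kidney sample without settling whether they were pooled. Dissociated cells were captured with 10x 3′ chemistry. The labels give no map from barcodes to conditions. The number from 1 to 5 that ends each barcode therefore only keeps libraries apart, all cells make 1 pooled sample, no condition is compared with another, and no p-value is given. The labels also name goblet cells as the cell type, which the markers do not bear out: Muc2, the mucin of goblet cells, had 21 UMIs in 20 cells, and 1 cell held UMIs of at least 2 of the 4 goblet markers looked at.

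When unfolded proteins gather in the ER, the sensors PERK, IRE1 and ATF6 act in parallel. PERK, like the kinases that sense amino acid shortage, viral RNA and haem shortage, phosphorylates eIF2 alpha, which lowers translation in general and favours translation of Atf4 mRNA. ATF4 then turns on amino acid supply genes such as Asns and a second tier that includes Ddit3 (CHOP), Trib3, Chac1 and Sesn2, whereas ATF6 and spliced Xbp1 turn on the chaperones and the degradation factors of the ER. In the kidney these pathways are known chiefly from the proximal tubule, which has a large protein load and is sensitive to ischemia.

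The promoters of some members carry motifs by which these arms are known, and the stretches that hold them are shown because the arm that each member belongs to orders the results. In RefSeq windows of 250 bases before to 50 after the start site (GRCm38.p6), all 10 members were matched, and 4 motifs were searched on both strands: ERSE (the ER stress element, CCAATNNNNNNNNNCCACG), ERSE-II (ATTGGNCCACG), CARE (the ATF4 element, TGATGNAA) and the UPRE core (TGACGTG). Capitals mark each match, read on the gene's own strand, where a match on the other strand appears as its reverse complement. Hspa5 (chr2:34771908-34772068, plus strand) holds a UPRE core and an ERSE, Hsp90b1 (chr10:86705508-86705681, minus strand) an ERSE on each strand, Herpud1 (chr8:94386292-94386412, plus strand) a CARE on the other strand and an ERSE-II, Asns (chr6:7693210-7693257, minus strand) a CARE, Chac1 (chr2:119351024-119351081, plus strand) a CARE on the other strand, and Trib3 (chr2:152344029-152344056, minus strand) a CARE on the other strand just inside the transcript.
Hspa5: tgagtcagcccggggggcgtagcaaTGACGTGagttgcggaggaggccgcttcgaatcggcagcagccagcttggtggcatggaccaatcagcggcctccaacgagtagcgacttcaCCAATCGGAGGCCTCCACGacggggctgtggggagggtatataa
Hsp90b1: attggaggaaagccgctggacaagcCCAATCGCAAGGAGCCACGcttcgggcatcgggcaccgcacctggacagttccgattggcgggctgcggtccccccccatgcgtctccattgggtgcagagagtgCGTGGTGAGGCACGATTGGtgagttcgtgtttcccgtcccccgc
Herpud1: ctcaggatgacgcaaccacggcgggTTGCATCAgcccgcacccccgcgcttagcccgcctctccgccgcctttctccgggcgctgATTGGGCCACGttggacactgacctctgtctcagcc
Asns: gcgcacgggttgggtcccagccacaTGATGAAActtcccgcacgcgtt
Chac1: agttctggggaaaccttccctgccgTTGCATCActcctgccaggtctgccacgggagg
Trib3: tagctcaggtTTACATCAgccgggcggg

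Of all 32851 windows of the same length, 0.119% held an ERSE, 0.0365% an ERSE-II, 3.97% a CARE and 2.01% a UPRE core, and 6.06% held at least 1 of them. Among the members 6 of 10 had a match. The motifs were chosen as those by which these arms are known, so this count is not a test of the members. The windows of Atf4, Ddit3, Xbp1 and Sesn2 had none, which says only that these letters are not in those windows. A match describes a sequence and is not a measured binding site.

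Depth was 4611 UMIs and 1695 genes in the median kept cell, with medians of 4038 to 5329 UMIs by library. A cell was placed in a class when it held UMIs of at least 2 markers of that class and its marker score was at least 1.5 times that of the next class, which placed 48570 cells and left 9091 in no class. Proximal tubule-like cells were by far the most numerous, with 41484 cells, followed by 1466 monocyte/macrophage-like, 1331 neutrophil-like and 1153 T/NK-like cells. The 334 injured tubule-like cells came mainly from libraries 1, 2 and 3 (96, 124 and 96 cells), since libraries 4 and 5 gave 16 and 2. The neutrophil-like cells numbered 59, 566, 519, 183 and 4 in libraries 1 to 5, and 72 of the 78 erythroid-like cells were in library 2. Markers of other classes were also present: the 4 proximal tubule S1/S2 markers summed to 4530 CPM (UMIs of a gene per 1000000 UMIs of the class) in proximal tubule-like cells, 302 in injured tubule-like, 302 in monocyte/macrophage-like and 686 in neutrophil-like cells, with none of the 4 at 0. The 6 monocyte/macrophage markers summed to 25253 CPM in their own class and 1745 CPM in neutrophil-like cells. The 6 neutrophil markers summed to 84145 CPM in their own class and 153 CPM in monocyte/macrophage-like cells. Pairs of libraries shared 19 to 68 barcode sequences.

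Atf4, the transcription factor at the centre of the integrated stress response, was highest in endothelial-like cells, where it reached 459 CPM (95% Poisson interval 429 to 491). All intervals given here cover counting error only. Podocyte-like cells followed at 382 CPM (310 to 465), which overlaps the endothelial interval, while proximal tubule-like cells had 154 CPM (152 to 155) and dendritic-like cells 126 CPM (103 to 154). The 3 libraries with at least 20 endothelial-like cells gave 474, 659 and 273 CPM, all above the 252, 170 and 114 CPM of proximal tubule-like cells in the same libraries. The 10 immediate early and heat shock genes, which rise during tissue dissociation, summed to 20641 CPM in endothelial-like cells and to 5490 CPM in proximal tubule-like cells, and their part in the Atf4 level was not tested. Since ATF4 protein is set largely by translation, these mRNA levels do not measure its activity.

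Ddit3, which encodes the pro-apoptotic factor CHOP, was at 139 CPM (97.3 to 192) in podocyte-like cells and 134 CPM (118 to 151) in neutrophil-like cells, levels that their intervals do not separate. Proximal tubule-like cells had 75.9 CPM, injured tubule-like cells 81.8 CPM, monocyte/macrophage-like cells 44.0 CPM and dendritic-like cells, the lowest, 16.6 CPM (8.82 to 28.3). The podocyte-like level rests on 36 UMIs from cells with a median of 923.5 UMIs, and it was 217 CPM in library 2 and 51.3 CPM in library 3. The neutrophil-like level came from 258 UMIs and was 69.6, 193, 86.7 and 129 CPM in libraries 1 to 4.

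Xbp1, the factor that IRE1 activates by splicing, was highest in neutrophil-like cells at 220 CPM (200 to 242). Intercalated-like cells came next at 142 CPM (117 to 169), proximal tubule-like cells had 126 CPM and the lowest level, in T/NK-like cells, was 37.8 CPM (30.5 to 46.3). Within neutrophil-like cells Xbp1 divided the libraries: it was 87.0 and 104 CPM in libraries 1 and 3, and 323 and 356 CPM in libraries 2 and 4. In library 3 neutrophil-like cells were not the highest, since proximal tubule-like cells had 150 CPM and monocyte/macrophage-like cells 166 CPM. The neutrophil-like level of library 1 rests on 5 UMIs and was under the 97.0 CPM of collecting duct principal-like cells. Counting from the 3′ end does not tell spliced from unspliced Xbp1 mRNA.

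The chaperones Hspa5 (BiP) and Hsp90b1 (GRP94), which fold proteins in the ER lumen, were the most abundant members beside Herpud1. Hspa5 was highest in monocyte/macrophage-like cells at 953 CPM (931 to 976), ahead of proximal tubule-like cells at 763 CPM (760 to 766), and lowest in distal convoluted tubule-like cells at 348 CPM (327 to 370). Hsp90b1 was highest in fibroblast/pericyte-like cells at 753 CPM (688 to 823), with monocyte/macrophage-like cells at 744 CPM (724 to 764) and podocyte-like cells at 721 CPM (622 to 833) inside that interval. Proximal tubule-like cells had 531 CPM of Hsp90b1, and neutrophil-like cells had the lowest level of 202 CPM (183 to 224). The ratio of Hsp90b1 to Hspa5 UMIs consequently differed between classes, from 0.413 (0.366 to 0.466) in neutrophil-like cells and 0.696 (0.691 to 0.701) in proximal tubule-like cells to 1.21 (1.13 to 1.30) in collecting duct principal-like cells.

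Herpud1, a membrane protein of ER-associated degradation, was highest in proximal tubule-like cells at 594 CPM (591 to 597). Dendritic-like cells followed at 316 CPM (278 to 358), then erythroid-like cells at 261 CPM (193 to 346) and thick ascending limb-like cells at 220 CPM (208 to 233). The erythroid-like level was 163 CPM (106 to 241) in library 2, which held 72 of the 78 cells. Beside haemoglobin genes, the leading genes of the erythroid-like class included the endothelial marker Kdr and the podocyte marker Podxl, so the class may be mixed. The lowest class was T/NK-like, with 95.3 CPM (83.4 to 108). The ambient profiles of libraries 1 to 5, read from near-empty barcodes, held 185, 224, 173, 537 and 366 CPM of Herpud1. Proximal tubule-like cells were above ambient and T/NK-like cells below it in each library. Thick ascending limb-like cells, at 295, 223, 169, 316 and 359 CPM, were above it in library 1 only. The part of ambient RNA in the class levels was not tested. Between the 28242 S1/S2-like and 2376 S3-like cells the order of Herpud1 differed by library. S3-like cells were higher in library 1 (842 against 607 CPM) and lower in library 5 (491 against 661 CPM), and in libraries 2, 3 and 4 they had 504, 361 and 773 CPM against 490, 402 and 843 CPM.

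Among the target genes of ATF4 and CHOP, Asns, which makes asparagine, was highest in injured tubule-like cells at 40.2 CPM (34.2 to 46.8). Fibroblast/pericyte-like, intercalated-like and collecting duct principal-like cells followed at 17.1, 15.3 and 13.4 CPM with overlapping intervals, and proximal tubule-like cells had 2.88 CPM (2.68 to 3.09). Dendritic-like cells had 0 UMIs of Asns, where 3 UMIs would have been 3.82 CPM. Sesn2, which restrains the growth kinase mTORC1, was highest in neutrophil-like cells at 59.5 CPM (49.2 to 71.5), above distal convoluted tubule-like cells at 30.9 CPM (25 to 37.8) and proximal tubule-like cells at 26.9 CPM. Its level in neutrophil-like cells was 69.6, 55.4, 52.5 and 102 CPM in libraries 1 to 4.

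Chac1, which degrades glutathione, was highest in neutrophil-like cells at 19.7 CPM (13.9 to 27.0), followed by injured tubule-like cells at 5.45 CPM (3.42 to 8.26). The neutrophil-like level came from 38 UMIs in 36 cells, 2.70% of them (exact binomial interval 1.90% to 3.73%), at a median depth of 1286 UMIs, against 2 of 1466 monocyte/macrophage-like cells (0.136%, 0.0165% to 0.492%) at a median of 3777 UMIs. After thinning each cell to 1000 UMIs, for which 315 cells of the first class and 120 of the second were too shallow, the shares were 2.46% and 0%. Chac1 was detected in all 4 libraries with at least 20 neutrophil-like cells, at 34.8, 23.2, 10.3 and 41.6 CPM, from 2, 18, 9 and 9 UMIs. In library 3 the neutrophil-like level (4.70 to 19.5) was not above the 11.1 CPM (5.73 to 19.4) of injured tubule-like cells. The ambient profiles of the 5 libraries, read from near-empty barcodes, held 0 to 2.91 CPM of Chac1, and 0 UMIs were found in the 1153 T/NK-like cells, where 3 UMIs would have been 1.23 CPM.

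Trib3, a pseudokinase that holds back AKT and CHOP signalling, was the sparsest member. Intercalated-like cells had 5.90 CPM (1.92 to 13.8) from 5 UMIs, injured tubule-like cells 5.45 CPM (3.42 to 8.26), thick ascending limb-like cells 3.95 CPM (2.48 to 5.98) and endothelial-like cells 3.74 CPM (1.5 to 7.70), so that the order of these 4 classes is not resolved. The thick ascending limb-like level describes library 3, which held 21 of its 22 UMIs and was at 6.97 CPM. Proximal tubule-like cells had 0.422 CPM (0.347 to 0.509), with 91 UMIs in S1/S2-like cells and 0 in S3-like cells, where 3 UMIs would have been 0.175 CPM. Segment and library are mixed here. Libraries 3 and 4 held 43 and 27 of the S1/S2-like UMIs but only 37 and 85 of the 2376 S3-like cells. In libraries 1, 2 and 5 the S1/S2-like cells had 3, 9 and 9 UMIs.

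**Figure D1:**
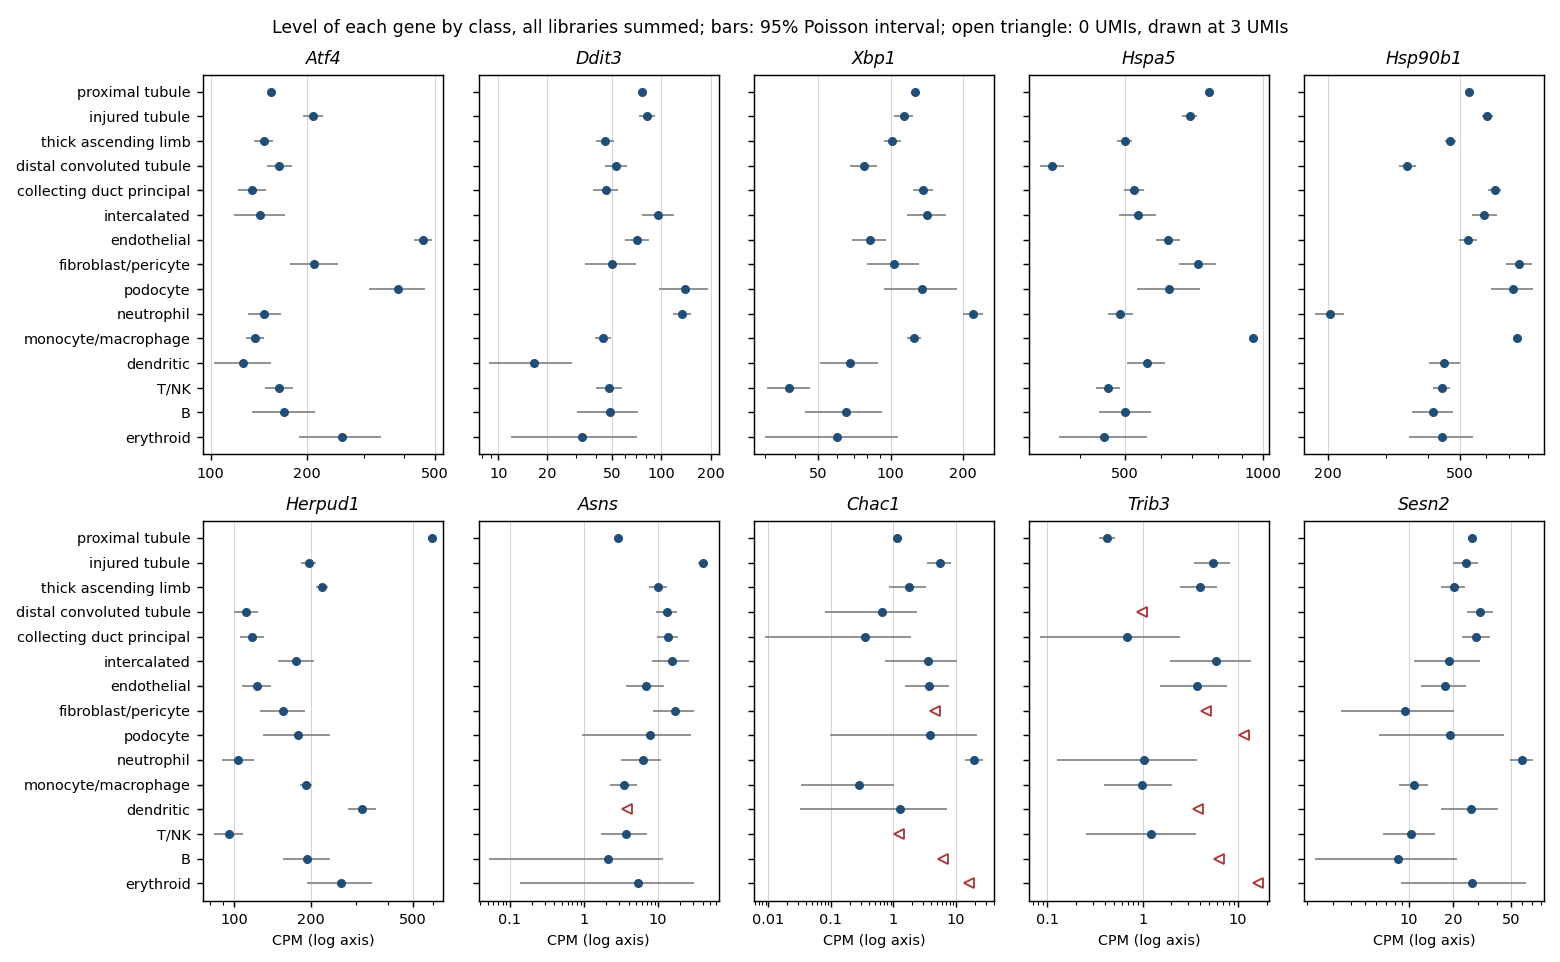
Level of each member in every class with at least 20 cells, in CPM on a log scale, with bars for the 95% Poisson interval. The highest points lie in different classes for different members, such as Herpud1 at 594 CPM in proximal tubule-like cells, Asns at 40.2 CPM in injured tubule-like cells and Chac1 at 19.7 CPM in neutrophil-like cells.

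The first comparison set injured tubule-like cells, defined by Havcr1, Krt20, Sox9, Cdh6 and Vcam1, against proximal tubule-like cells. An injured tubule-like cell had to score at least 1.5 times its proximal tubule score. A further 423 cells, in which the injured and proximal tubule lists led, missed the margin and were in no class. Cells with high scores of both lists are thus left out of the comparison. Asns, Trib3 and Chac1 were higher in the injured class and Herpud1 was lower, while both chaperones and all 3 transcription factors differed by less than 2-fold. Of the 10 members 3 were at least 2-fold higher, against 27.7% of the 14729 genes with at least 50 UMIs over both classes, and 1 was at least 2-fold lower, against 15.8% of those genes. The median log2 ratio was 0.15 for the members and 0.39 for all genes tested. The share of members that were higher was thus close to that of all genes.

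Asns was 45.0, 34.6 and 41.6 CPM in the injured tubule-like cells of libraries 1, 2 and 3, and 2.78, 2.49 and 4.41 CPM in the proximal tubule-like cells of the same libraries. The 2 sets of levels did not overlap, and the log2 ratio over all libraries was 3.80 (exact conditional interval 3.55 to 4.05), a fold of 14.0. Injured tubule-like cells were deeper, with a median of 8854.5 UMIs against 5540, so shares of cells are given after thinning to 1000 UMIs: 4.36% of injured tubule-like and 0.245% of proximal tubule-like cells held an Asns UMI, against 28.1% and 1.60% unthinned.

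Trib3 was 2.81, 2.43 and 12 CPM in the injured tubule-like cells of libraries 1 to 3, against 0.181, 0.196 and 0.643 CPM in proximal tubule-like cells. Its log2 ratio was 3.69 (2.96 to 4.36), from 22 UMIs in the injured class. Chac1 was 4.69, 0.608 and 11.1 CPM against 0.722, 0.235 and 0.414 CPM, and its log2 ratio of 2.24 (1.55 to 2.87) also rests on 22 injured-class UMIs, 12 of them in library 3. Both genes were higher in the injured class within each of the 3 libraries, but the ratio for Chac1 was 1.25 without library 3 and 3.27 without library 4, where its proximal tubule-like level was highest. In libraries 1 and 2 the injured class held 5 and 1 UMIs of Chac1 and 3 and 4 of Trib3. The library 2 interval of Chac1 (0.0154 to 3.39 CPM) includes the proximal tubule-like level. Thinned to 1000 UMIs per cell, Asns alone was counted as at least 2-fold higher, since too few UMIs of Trib3 and Chac1 were left.

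Herpud1 was 251, 187 and 145 CPM in injured tubule-like cells and 721, 498 and 403 CPM in the proximal tubule-like cells of libraries 1 to 3. It was lower in each of them, with a log2 ratio of -1.60 (-1.71 to -1.5). Hspa5 changed sign between libraries, with log2 ratios of 0.21, -0.25 and 0.26, and Hsp90b1 was slightly higher in each (0.44, 0.38 and 0.24). Ddit3 was lower in libraries 1 and 2 (-0.38 and -0.30) and higher in library 3 (0.87), so the pooled ratio of 0.11 (-0.05 to 0.26) does not describe the libraries. Mitochondrial UMIs made up 5.82% of the injured class and 12.4% of the proximal tubule class, and the part of this gap in the ratios was not tested beyond the alternatives listed in the closing section.

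The wider pathway was read from 9 lists of 57 genes. Of these, 20 were at least 2-fold higher and 4 at least 2-fold lower in injured tubule-like cells, against 27.7% and 15.8% of all genes tested. Their log2 ratios had a median of 0.38, against 0.39 for all genes. The counts differed between lists: 4 of 5 ATF4 partners and stress transcription factors and 6 of 10 genes of amino acid synthesis and transport were higher, as were 3 of 5 eIF2 alpha kinase-list genes, 3 of 6 other ATF4 and CHOP targets, 2 of 5 tRNA synthetases, 1 of 2 phosphatase subunits and 1 of 5 genes of the IRE1 and ATF6 arms, but 0 of 12 ER chaperones and foldases and 0 of 7 genes of ER-associated degradation. The largest ratios belonged to the stress factor Nupr1 (450 against 13.8 CPM, log2 5.03), the proline enzyme Aldh18a1 (4.48), the amino acid transporter Slc7a5 (4.19), the mitochondrial folate enzyme Mthfd2 (3.35) and Atf5 (3.08). The smallest belonged to Derl3 (-2.35, from 1 UMI in the injured class), the cysteine enzyme Cth (-2.13), Shmt2 (-1.74), Psat1 (-1.09) and the haem-regulated kinase Eif2ak1 (-0.60). Of the 10 immediate early and heat shock genes 3 were higher and 0 lower, with a median log2 ratio of 0.64.

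**Figure D2:**
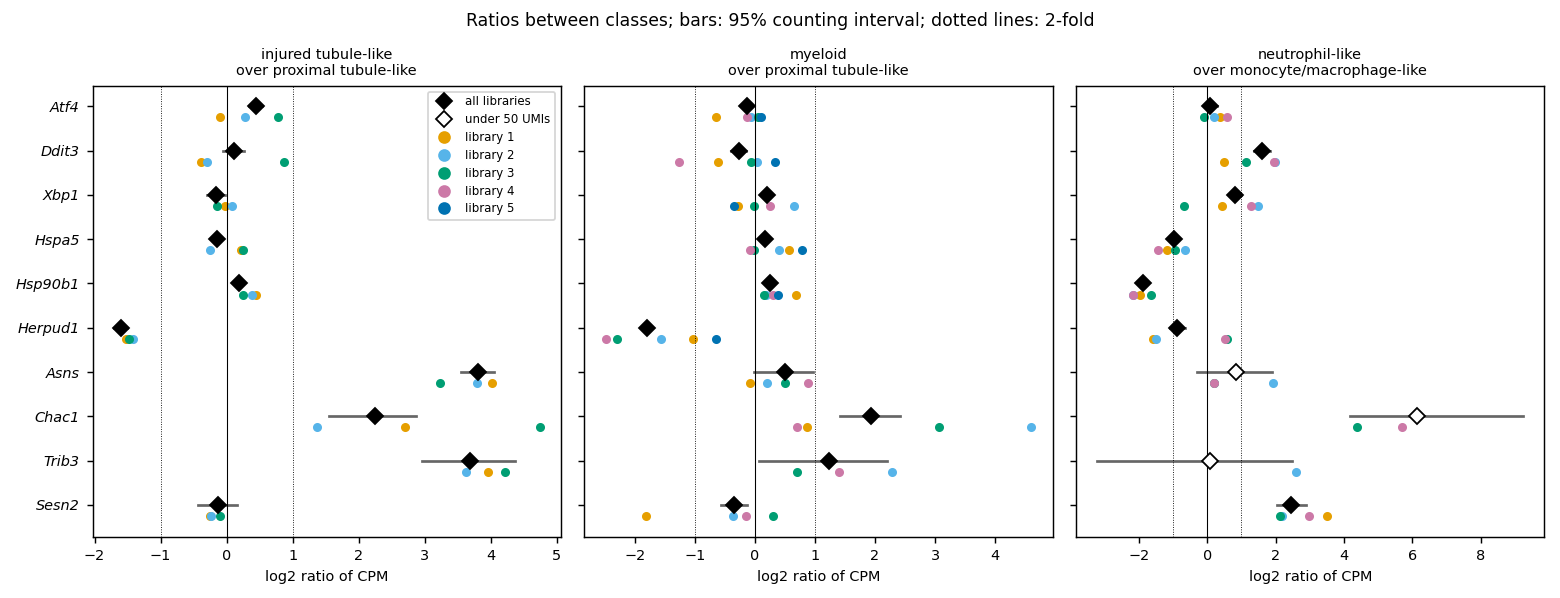
Log2 ratio of each member between classes, with bars for the exact conditional 95% interval and small points for single libraries. Asns (3.80), Trib3 (3.69) and Chac1 (2.24) lie to the right in the injured tubule-like comparison, and Herpud1 lies to the left of 0 against proximal tubule-like cells in both the injured (-1.60) and the myeloid (-1.79) comparison.

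The second comparison set myeloid cells, the neutrophil-like and monocyte/macrophage-like cells together, against proximal tubule-like cells. Herpud1 was lower in 5 of 5 libraries, with 172 against 594 CPM and a log2 ratio of -1.79 (-1.86 to -1.72). The ratio within libraries lay between -2.49 in library 4 and -0.65 in library 5. Of the 10 members 2 were at least 2-fold higher, Chac1 and Trib3, against 20.3% of the 14930 genes tested, and Herpud1 alone was at least 2-fold lower, against 33.4%. The median log2 ratio was 0.18 for the members and -0.34 for all genes tested. Both comparisons use the same proximal tubule-like cells and therefore share their denominator.

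Chac1 was 4.39 CPM in myeloid cells and 1.15 CPM in proximal tubule-like cells, with a log2 ratio of 1.93 (1.42 to 2.41), and 38 of its 40 myeloid UMIs were in neutrophil-like cells. Without library 4 the ratio was 3.00. Trib3 rests on 9 myeloid UMIs, with a log2 ratio of 1.23 (0.06 to 2.20) that fell below 2-fold without the cells of highest doublet score and with a mitochondrial limit of 10%. The other 7 members, transcription factors and chaperones included, stayed within 2-fold.

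Of the 57 pathway genes 15 were at least 2-fold higher and 7 at least 2-fold lower in myeloid cells, against 20.3% and 33.4% of all genes tested. The median of their log2 ratios was 0.25, against -0.34 for all genes tested. The cystine transporter Slc7a11 had the largest ratio (256 against 0.825 CPM, log2 8.28), followed by Slc7a5 (4.57), Aldh18a1 (3.66), the transcription factor Cebpb (3.14) and Mthfd2 (3.00). The smallest were Cth (-3.29), the lipoprotein receptor Vldlr (-3.01), Fgf21 (-2.53, from 1 myeloid UMI), Shmt2 (-2.37) and the stress cytokine Gdf15 (-1.83). By list, 4 of 5 stress transcription factors and 5 of 10 amino acid genes were higher, with 4 of those 10 lower, and 1 of 12 ER chaperones was higher. Of the immediate early and heat shock genes 4 of 10 were higher and 1 lower.

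Within the myeloid cells, neutrophil-like cells carried more Ddit3 and Sesn2 and less of both chaperones than monocyte/macrophage-like cells. Ddit3 was 134 against 44.0 CPM, a log2 ratio of 1.60 (1.36 to 1.84), and Sesn2 was 59.5 against 10.9 CPM, a log2 ratio of 2.46 (2.03 to 2.89). Both were higher in 4 of 4 libraries. Hsp90b1 was lower in 4 of 4, with a log2 ratio of -1.88 (-2.03 to -1.73), and Hspa5 was lower in 4 of 4 at -0.96 (-1.06 to -0.86). In library 1 Ddit3 and Sesn2 each rest on 4 neutrophil-like UMIs. Ddit3 was 69.6 CPM (19.0 to 178) there, which overlaps the 49.3 CPM (38.6 to 62.1) of monocyte/macrophage-like cells. Of the 7 members with at least 50 UMIs over both classes, 2 were at least 2-fold higher, against 14.1% of 8952 genes, and 1 was at least 2-fold lower, against 22.0%. The median log2 ratio was 0.10 for these members and -0.20 for all genes tested.

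Chac1, with 38 against 2 UMIs, had fewer than 50 UMIs in all and a log2 ratio of 6.14 (4.19 to 9.24). Xbp1 was higher in neutrophil-like cells by 0.82 (0.65 to 0.99), but it was higher in 3 of 4 libraries and lower in library 3 (-0.68). The ratio was 0.23 without library 2 and 1.55 without library 3. Herpud1 split the libraries, lower in libraries 1 and 2 (-1.58 and -1.50) and higher in libraries 3 and 4 (0.57 and 0.51). The S1/S2 markers of proximal tubule, the class with the most Herpud1, were at 686 CPM in neutrophil-like cells (304 to 1164 over libraries) and 302 CPM in monocyte/macrophage-like cells (176 to 920), and their part in this split was not tested.

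Of the 53 pathway genes tested here 4 were at least 2-fold higher and 21 at least 2-fold lower in neutrophil-like cells, against 14.1% and 22.0% of all genes tested. The median was -0.84, against -0.20 for all genes tested. Among the 12 ER chaperones and foldases 8 were lower and 0 higher. The smallest ratios were those of the ER co-chaperone Sdf2l1 (-4.55), Nupr1 (-3.01), the disulphide isomerase Pdia4 (-2.67), the protease Mbtps2 (-2.45, from 3 neutrophil-like UMIs) and Mthfd2 (-2.09). The largest were those of Slc7a11 (834 against 101 CPM, log2 3.04), Cebpb (1.92), Vldlr (1.21), the eIF2 alpha phosphatase subunit Ppp1r15a (1.13) and Ddit4 (0.86).

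Neutrophil-like cells with a UMI of Siglecf, a receptor found on a subset of kidney neutrophils, numbered 121 and had nearly the same median depth as the other 1210 (1336 and 1278 UMIs). Chac1 was 57.5 CPM (27.6 to 106) in them and 15.9 CPM (10.6 to 23.0) in the rest, from 10 and 28 UMIs. Xbp1 was 333 CPM (253 to 431) against 209 CPM (188 to 231), and Ddit3 was 207 CPM (145 to 286) against 126 CPM (110 to 144). Sesn2 went the other way, with 23.0 CPM (6.26 to 58.8) against 63.2 CPM (52.0 to 76.1). Libraries 2 and 4 gave 66 and 34 of the cells with Siglecf, and within them Chac1 was 61.6 against 17.7 CPM and 93.3 against 28.8 CPM, and Xbp1 was 359 against 318 CPM and 443 against 334 CPM. The intervals of both genes overlap within each library, and those of Chac1 rest on 6 and 4 UMIs in the cells with Siglecf. Ddit3 was 246 against 185 CPM in library 2 and 187 against 115 CPM in library 4, also with overlapping intervals. Hspa5 was lower with Siglecf in library 2, at 328 CPM (225 to 464) against 612 CPM (555 to 674). In library 4 it was 583 CPM (377 to 861) against 501 CPM (401 to 618). Over all libraries it was 465 CPM (370 to 578) against 492 CPM (460 to 526).

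Across libraries, the proximal tubule-like cells offer the largest and most even class, with 6883, 7378, 12213, 7019 and 7991 cells. Atf4 was 252, 170, 114, 123 and 133 CPM in libraries 1 to 5, and Ddit3 was 76.9, 82.3, 56, 114 and 60.6 CPM. Xbp1 was 79.1, 106, 150, 150 and 133 CPM. Atf4 was highest where Xbp1 was lowest, in library 1, and Ddit3 was highest in library 4.

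Among the ER proteins, Hspa5 was 570, 617, 684, 1358 and 640 CPM in libraries 1 to 5, Hsp90b1 was 364, 458, 558, 752 and 510 CPM, and Herpud1 was 721, 498, 403, 847 and 611 CPM. All 3 were highest in library 4. For Hspa5 the other 4 libraries lay within 1.20-fold of each other and library 4 stood apart.

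Asns was 2.78, 2.49, 4.41, 2.25 and 1.77 CPM, Trib3 was 0.181, 0.196, 0.643, 0.778 and 0.224 CPM, and Sesn2 was 30.1, 29.4, 19.8, 28.9 and 29.8 CPM. Chac1 was 0.722, 0.235, 0.414, 4.21 and 0.652 CPM, with library 4 well above the other libraries. Asns was highest in library 3, in which Sesn2 was lowest.

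The highest library exceeded the lowest by at least 2-fold for 8 of 10 members, against 38.0% of the 14508 genes tested, and by 1.90-fold for Xbp1 and 1.52-fold for Sesn2. The median over all genes tested was 1.70-fold. The count of 8 fell to 4 without library 4 and to 5 without library 3. Within S1/S2-like cells alone, library 4 remained highest for Hspa5 (1331 against 501 to 676 CPM) and Chac1 (3.04 against 0.197 to 0.827 CPM). The members past 2-fold were not all the same there: the range was 1.80-fold for Atf4, below the limit, and 2.04-fold for Xbp1, above it. Sesn2 had a range of 1.53-fold and was highest in library 5. Over all proximal tubule-like cells of libraries 1 to 5, immediate early and heat shock genes summed to 3745, 6598, 6103, 5479 and 5053 CPM. Mitochondrial UMIs made up 13.8%, 12.8%, 10.3%, 12.4% and 13.5% of the UMIs of the same cells. Library 4 was at neither end of these measures, and their part in its levels was not tested.

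**Figure D3:**
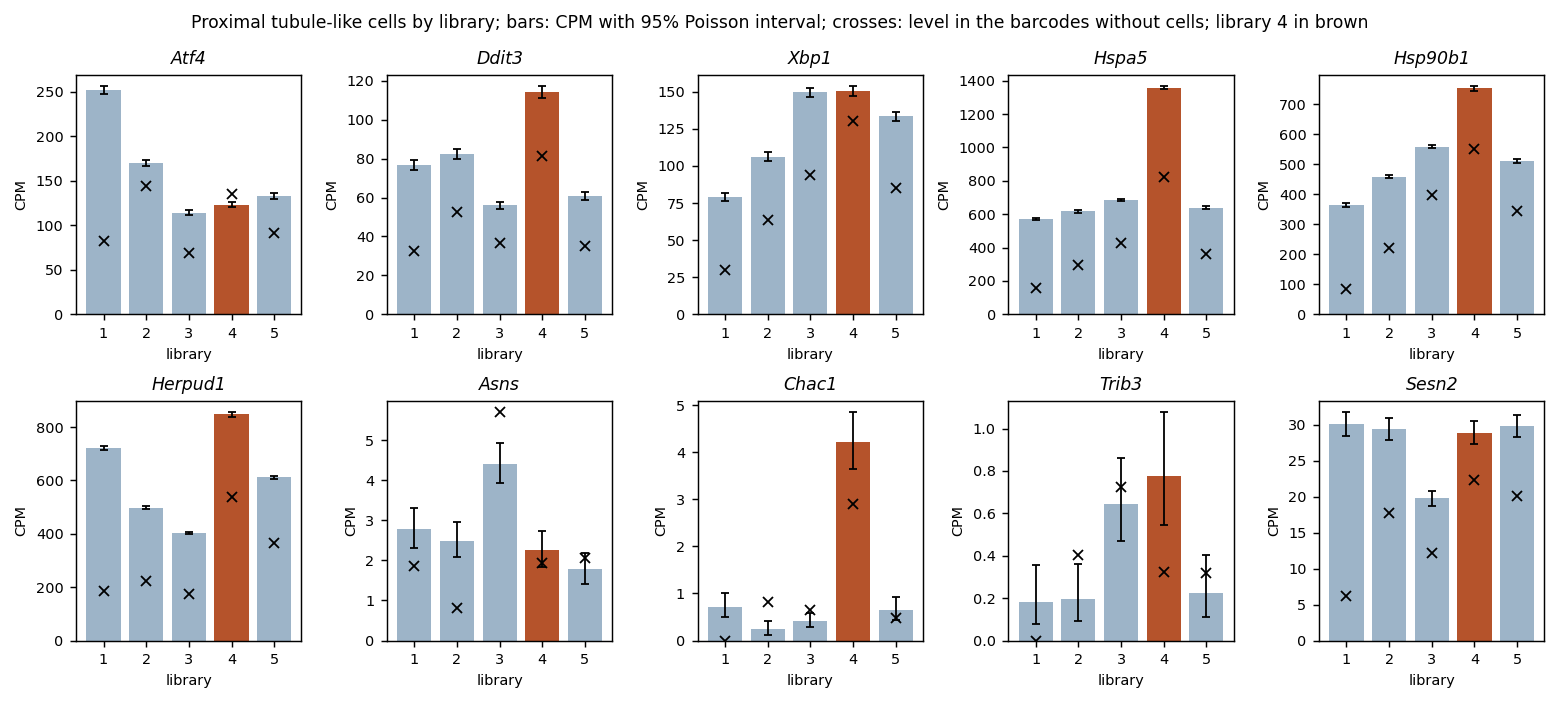
Level of each member in the proximal tubule-like cells of the 5 libraries, in CPM, with bars for the 95% Poisson interval. Library 4 is highest for 7 of the 10 members, with Hspa5 at 1358 CPM against 570 to 684 CPM and Chac1 at 4.21 CPM against 0.235 to 0.722 CPM. For Xbp1 and Trib3 its interval overlaps that of library 3.

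Library 4 was singled out after these values were seen, and the condition it holds is not known. In its proximal tubule-like cells 7 of 10 members were at their highest, against 8.78% of all genes tested, and 3 were at least 2-fold above the other 4 libraries together, against 0.986%. Those 3 were Chac1 (log2 ratio 3.10, 2.76 to 3.46), Trib3 (1.17, 0.56 to 1.77) and Hspa5 (1.10, 1.08 to 1.11). Among the 7, Xbp1 and Trib3 were not separated from library 3. Xbp1 was 150.4 CPM (147 to 154) against 149.6 CPM (147 to 153) there. Trib3 was 0.778 CPM (0.545 to 1.08) against 0.643 CPM (0.469 to 0.860). The median log2 ratio was 0.65 for the members and -0.09 for all genes tested. Atf4 (-0.38) and Asns (-0.42) had ratios below 0 against the other libraries together, although Atf4 was lower in library 3 and Asns was lower in library 5 than in library 4.

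Of the 57 pathway genes 19 were highest in library 4, against 8.78% of all genes tested, and 6 were at least 2-fold higher, against 0.986%. At least 2-fold lower were 3. ER chaperones and foldases had the largest share, with 10 of 12 highest there and a median log2 ratio of 0.57, and ER-associated degradation followed with 4 of 7 and 0.44. The secreted ER factors Creld2 (1.53) and Manf (1.21) and the co-chaperone Sdf2l1 (1.20) were higher, as were the degradation factor Derl3 (2.45, 3.85 CPM against 0.654 to 0.836) and the hormone Fgf21 (2.26, 1.81 CPM against 0.0981 to 0.587). None was highest in library 4 among the 5 genes of the eIF2 alpha kinase list, the 2 phosphatase subunits, the 5 of the IRE1 and ATF6 arms, the 5 stress transcription factors and the 5 tRNA synthetases. Nupr1 (-1.25), Slc7a5 (-1.25), Ddit4 (-1.17), Psat1 (-0.67) and Shmt2 (-0.37) had the smallest ratios. Single libraries weigh in these: Nupr1 was 38.5 CPM and Psat1 69.8 CPM in library 3, against 6.46 and 22.3 CPM in library 4, and Ddit4 was 57.7 CPM in library 1 against 9.87 CPM. Slc7a5 had 5 UMIs in library 4 and an interval of -2.93 to 0.06. The immediate early and heat shock genes were highest there in 0 of 10 cases, with a median log2 ratio of -0.42.

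The Hspa5 level of library 4 was spread over its cells. With each cell thinned to 2000 UMIs, the mean was 2.92 UMIs of Hspa5 per cell in library 4 and 1.13 to 1.38 in the others. The share of cells without an Hspa5 UMI was 16.5% against 31.9% to 42.5% (8.68% against 19.5% to 29.0% unthinned), and the share with at least 5 was 22.6% against 3.35% to 3.64%. Thinning left out 767 cells of library 4 and 1162 to 2189 cells of the others. The ambient profile of library 4 was also the highest in Hspa5, at 823 CPM against 158 to 429 CPM. With 10% of UMIs taken as ambient and subtracted, the library range of Hspa5 was above 2-fold. That 10% is a set share and not an estimate, and the part of ambient RNA in the library 4 level was not tested.

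Other classes of library 4 were partly alike. In monocyte/macrophage-like cells Hspa5 was 1409 CPM in library 4 and 798 to 1118 CPM in the others, and Hsp90b1 was 1043 CPM against 605 to 784 CPM. Ddit3 (33.1 CPM against 39.3 to 79.1) and Atf4 (104 CPM against 120 to 160) were lowest there, with intervals that overlap those of library 3. Herpud1 (142 CPM against 71.6 to 396) was not highest there. Of the 7 members tested 3 were highest in library 4, against 11.9% of 8182 genes, and 0 were at least 2-fold higher, against 1.06%. Sesn2 was among the 3, at 12.9 CPM (7.39 to 21.0) from 16 UMIs, which overlaps 12.2 CPM (8.18 to 17.5) in library 2. ER chaperones and foldases were highest in library 4 in 10 of 12 cases in this class also.

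Hspa5 was likewise highest in library 4 in thick ascending limb-like cells (893 against 345 to 545 CPM), collecting duct principal-like cells (948 against 432 to 523 CPM) and T/NK-like cells (647 against 360 to 532 CPM), from 31, 31 and 91 cells. It was not highest there in neutrophil-like cells (517 against 383 to 577 CPM) or in the 21 B-like cells (282 against 485 to 607 CPM). Ambient Hspa5 in library 4 was 823 CPM. This was inside the thick ascending limb-like interval (780 to 1017), just under the collecting duct principal-like one (826 to 1083) and above the T/NK-like one (548 to 758). The part of ambient RNA in these levels was not tested. Herpud1 in neutrophil-like cells was highest in library 4 at 203 CPM against 70.8 to 122 CPM. The ambient Herpud1 level was also highest there, at 537 CPM against 173 to 366 CPM, and was above the neutrophil-like level in each of the 4 libraries.

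**Figure D4:**
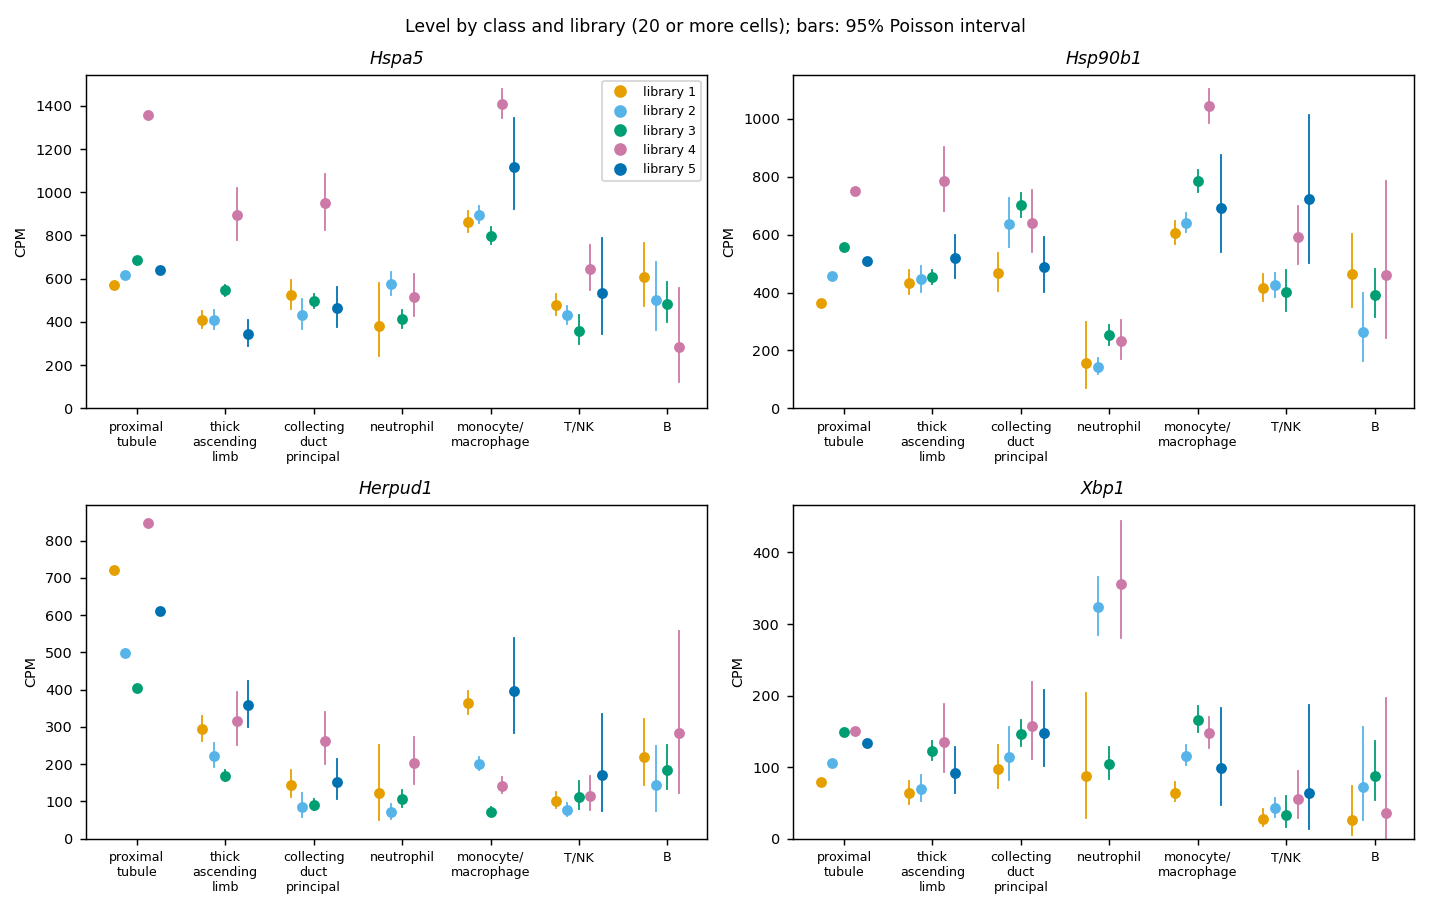
Levels of Hspa5, Hsp90b1, Herpud1 and Xbp1 by class and library for classes with at least 20 cells in a library, in CPM, with bars for the 95% Poisson interval. The point of library 4 is the top one for Hspa5 in proximal tubule-like (1358 CPM) and monocyte/macrophage-like cells (1409 CPM), and lies among the others in neutrophil-like cells (517 CPM).

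Chac1 in proximal tubule-like cells was detected in few cells. It had 300 UMIs in 185 of 41484 cells (0.446%), and 114 of these cells with 195 UMIs were in library 4, where the largest number in 1 cell was 8. The share of cells with a Chac1 UMI was 0.262%, 0.108%, 0.180% and 0.288% in libraries 1, 2, 3 and 5, and 1.62% (1.34% to 1.95%) in library 4, at library median depths of 5242 to 5816 UMIs.

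In library 4 the 114 cells with a Chac1 UMI carried more of the other ATF4 and CHOP targets than the 6905 cells without. Trib3 was 19.7 CPM (12.2 to 30.1) against 0.332 CPM (0.186 to 0.547), and Asns was 15 CPM (8.56 to 24.3) against 1.95 CPM (1.56 to 2.40). Ddit3 was 235 CPM (207 to 266) against 111 CPM (108 to 115), and Atf4 was 190 CPM (165 to 218) against 122 CPM (118 to 125). The chaperones did not follow: Hspa5 was 1278 CPM (1211 to 1348) against 1360 CPM (1349 to 1371), and Hsp90b1 was 645 CPM (598 to 695) against 755 CPM (747 to 763). Cells with a Chac1 UMI were deeper, with medians of 8008 and 5717 UMIs.

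The 71 cells with a Chac1 UMI in the other 4 libraries gave a like picture for the target genes. Trib3 was 21.0 CPM against 0.272 CPM, Asns was 65.8 CPM (48.8 to 86.7) against 2.79 CPM, Ddit3 was 172 CPM against 67.3 CPM and Atf4 was 308 CPM (270 to 350) against 160 CPM. Here Hspa5 was also higher, at 754 CPM (693 to 818) against 634 CPM (631 to 637). Asns was thus lower in the Chac1-positive cells of library 4 than in those of the other libraries, while Trib3 was at nearly the same level, and cells of a library are not replicates of it. The 36 neutrophil-like cells with a Chac1 UMI were not higher than the others in Atf4 (133 against 147 CPM) or Sesn2 (57.0 against 59.6 CPM). Their Ddit3 level of 171 CPM (78.3 to 325) overlaps the 133 CPM (117 to 150) of the others. Asns was 38.0 CPM (4.61 to 137) from 2 UMIs against 5.32 CPM (2.55 to 9.79). Trib3 was 19.0 CPM (0.481 to 106) from 1 UMI against 0.532 CPM (0.0135 to 2.97). Both point the same way as in proximal tubule-like cells but are too sparse to compare.

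**Figure D5:**
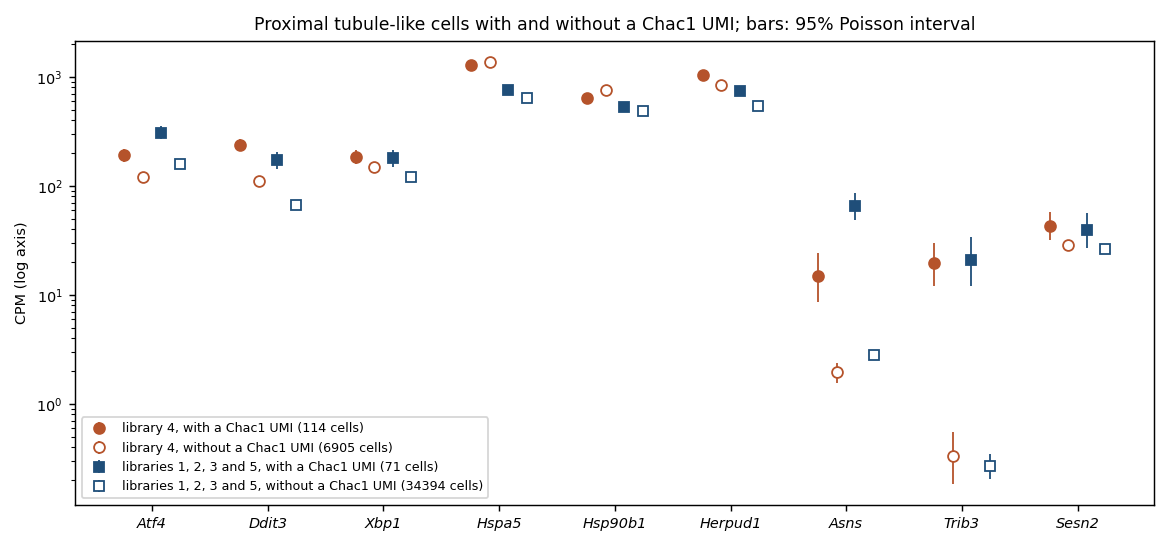
Levels of the other 9 members in proximal tubule-like cells with and without a Chac1 UMI, in library 4 and in the other 4 libraries together, in CPM on a log scale with 95% Poisson intervals. Trib3 (19.7 against 0.332 CPM in library 4) and Asns (15 against 1.95 CPM) are set apart, and Hspa5 (1278 against 1360 CPM) is not.

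The profiles of the members over 41 sums of class and library with at least 50 cells were compared with those of 6328 genes by Spearman's rho, given as a description, since sums share libraries and depth. The genes most like Hsp90b1 were other ER chaperones and isomerases: Pdia3 (0.84), Manf (0.79), Calr (0.77), Pdia6 (0.76) and Pdia4 (0.75). Manf was also the gene most like Hspa5 (0.73), and Sesn2 the one most like Ddit3 (0.57). Atf4 was closest to Sertad1 (0.79), Xbp1 to Atp6v0b (0.78), Herpud1 to the neonatal Fc receptor Fcgrt (0.71), Asns to Emp2 (0.83), Sesn2 to the stress gene Gadd45a (0.66), Trib3 to Atp13a3 (0.67) and Chac1 to Med31 (0.63). Among pairs of members the highest values were those of Xbp1 and Chac1 (0.61), Hspa5 and Hsp90b1 (0.59), Ddit3 and Sesn2 (0.57) and Ddit3 and Chac1 (0.57), and the lowest was that of Hsp90b1 and Sesn2 (-0.43). Of the 41 sums 19 held 0 UMIs of Chac1 and 21 held 0 of Trib3, so the values for these genes rest largely on ties.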

How the data were processed

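Per the labels and the study's methods, the authors used Cell Ranger 6.0 with mm10 for 10x 3′ v3.1 reads, and 1 merged matrix of raw UMI counts was deposited, with no cells called. In each library, barcodes above a UMI threshold were called outright. Those below it with at least 500 UMIs were compared with an ambient profile (false discovery rate 0.01). Together this gave 70377 barcodes. The filters left 57661 cells, 516 barcodes being under 200 genes and 12665 over 25% mitochondrial counts. Doublets were kept and were scored with Scrublet for an alternative. Library totals over all barcodes were 82426945 to 139382799 UMIs. Classes came from 17 marker lists by a per-cell gate. UMIs were summed per class and scaled to CPM, with no length scaling, exact Poisson intervals for levels, exact conditional binomial intervals for ratios and Clopper-Pearson intervals for shares. With 1 pooled sample no test was made, and the background is the share of genes past the same 2-fold limit. Likeness used log2(CPM + 10). All members are named with values. Of the pathway lists, the 5 genes with the largest and the 5 with the smallest ratio among those with at least 50 UMIs are named, and for each member the 5 most alike were computed. The members and lists were chosen with earlier results of these data known. The study's methods count more matrices than the 5 barcode endings. Scripts were tested on simulated data and used Python 3.11.15, NumPy 2.4.6, SciPy 1.17.1, pandas 2.3.3, Scanpy 1.11.5, leidenalg 0.10.2 and Matplotlib 3.10.9. Alternatives covered calling, filters, class assignment, doublets, averaging, depth, ambient RNA and single libraries, and others were added after the data were seen: mitochondrial counts left out of the denominator, and, under every setting, the class of the highest level and the neutrophil-like over monocyte/macrophage-like ratios.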

Additional observations from a re-analysis of the deposited data

Results flagged for a closer look

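In proximal tubule-like cells, 3 members had a library far from the other 4 by Dixon's criterion (gap to the nearest library over the whole range, critical value 0.71). Hspa5 was 1358 CPM in library 4 with a gap of 0.855, Chac1 was 4.21 CPM in library 4 with a gap of 0.878, and Sesn2 was 19.8 CPM in library 3, below the others, with a gap of 0.882. Within S1/S2-like cells alone, library 3 did not stand apart for Sesn2: it had 19.35 CPM and library 1 had 20.7 CPM, against 28.6 to 29.7 CPM in the others. Chance flags about 1 in 20 groups, and the libraries are not replicates of 1 group.

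A signal of every member was also present in data that the comparisons left out, the 12200 called barcodes with at least 200 genes and over 25% mitochondrial counts. With 3 UMIs making 0.0552 CPM there, Atf4 was at 65.7 CPM, Ddit3 at 27.6 CPM, Xbp1 at 60.5 CPM, Hspa5 at 377 CPM, Hsp90b1 at 394 CPM, Herpud1 at 215 CPM, Asns at 2.56 CPM, Chac1 at 0.497 CPM, Trib3 at 0.405 CPM and Sesn2 at 16.1 CPM. All 10 were below their levels in kept cells. With mitochondrial counts left out of both denominators, Hsp90b1 was at 672 CPM in these barcodes and 597 CPM in kept cells, while Hspa5 was at 643 and 824 CPM, Herpud1 at 367 and 590 CPM and Ddit3 at 47.1 and 82.3 CPM.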

How the results depend on the processing

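Over 17 other settings, 614 single ratios and ranges were recomputed, of which 434 stayed inside the counting interval of the reported value (for ranges, within 0.1 on the log2 scale), 180 moved beyond it and 0 of those at least 2-fold apart changed sign. The count of members at least 2-fold higher in injured tubule-like cells was 3, and 1 with cells thinned to 1000 UMIs, where fewer members kept enough UMIs. In myeloid cells the count was 2, and 1 with at most 10% mitochondrial counts, without the highest doublet scores and with thinning. Leaving out 1 library at a time gave 3 to 3, 2 to 2 and, for the library range of at least 2-fold, 4 to 8 members against 8. The class with the highest level was kept for 7 to 10 of 10 members, and Atf4, Xbp1, Hspa5, Herpud1, Asns, Chac1 and Sesn2 kept it under every setting. No setting ranked the classes within a single library, where the order can differ. Xbp1 in library 3 was 104 CPM in neutrophil-like and 166 CPM in monocyte/macrophage-like cells. Chac1 in library 3 was 10.3 CPM in neutrophil-like and 11.1 CPM in injured tubule-like cells, with overlapping intervals. The log2 ratio in injured tubule-like cells lay between 3.08 and 4.10 for Asns, 2.84 and 4.08 for Trib3, 1.25 and 3.58 for Chac1 and -1.81 and -1.45 for Herpud1. Averaging over libraries gives no library range. Counting depth limits Trib3 and Chac1 most. Class ratios were also computed within single libraries, but no paired test was made because all cells form 1 pooled sample.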

Other observations

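The 9 plasma-like cells, all in library 1, were too few for the class comparisons. Hsp90b1 was 4211 CPM (3739 to 4727) in them, Hspa5 1389 CPM (1124 to 1698), Herpud1 760 CPM (568 to 997) and Xbp1, a factor required for plasma cell secretion, 687 CPM (505 to 914), above the pooled levels of the 15 larger classes. In library 1 itself, proximal tubule-like cells had 721 CPM of Herpud1, inside the plasma-like interval. The ratio of Hsp90b1 to Hspa5 UMIs was 3.03 (2.40 to 3.86). Trib3, Chac1 and Sesn2 had 0 UMIs in them, where 3 UMIs would have been 43.9 CPM.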
